A study of Mus musculus with 4 samples.

Results

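The Fanconi anaemia and crosslink repair genes described here are Fancc, Fancl, Rfwd3, Slx4 and Brca1, 5 of the 49943 placed mouse genes. They were chosen by their called intervals, each gene having at least 1 in the 4 deposited peak lists that overlaps the gene or the 1000 bp beside it, so which lists held them is a description and was not tested. The assay was CUT&Tag in P19, a line of mouse embryonal carcinoma cells. In CUT&Tag a transposase is tethered to an antibody and inserts sequencing adapters into nearby DNA. The antibody was S9.6, which binds RNA:DNA hybrids. The 4 libraries, 1 per condition, came from cells labelled wild-type and given a control adenovirus (shCtrl) with S9.6, cells with Ube2t knocked down by adenovirus shUbe2t #1 or by adenovirus shUbe2t #2, each with S9.6, and the same shCtrl condition without primary antibody. The peak names of that last library begin with IgG, and its label is followed here. All 4 conditions had therefore received an adenovirus, and each hairpin was seen in 1 library. There were no replicates, so conditions were not tested against each other, and lists that differ show only that these libraries differ. No library had its hybrids removed, which would be needed to call the intervals R-loops, and peak lists of genomic DNA measure neither the knockdown nor markers of the cell line.

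The Fanconi anaemia pathway repairs DNA strands that are covalently crosslinked to each other. A core complex, to which FANCC and the RING ubiquitin ligase FANCL belong, works with the E2 enzyme UBE2T to attach ubiquitin to FANCD2 and FANCI. Nucleases gathered by the scaffold SLX4 then cut the DNA around the crosslink, and homologous recombination, with BRCA1 and the ubiquitin ligase RFWD3 among its factors, restores the broken strand. The pathway is also known for limiting R-loops, in which an RNA strand pairs with a DNA strand and displaces the other. The values here concern S9.6 signal on the genes of these factors and not the amount or activity of their proteins.

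The 5 genes held 7 intervals, 4 in the shUbe2t #2 list, 2 in the shUbe2t #1 list, 1 in the shCtrl list and none without antibody. By summit, 5 of the 7 lay within 1000 bp of the RefSeq start of their gene. The Slx4 intervals lay near its outermost annotated start only, and none lay near the finish of a gene. Of whole lists, 25.3% (shCtrl), 41.1% (shUbe2t #1) and 43.7% (shUbe2t #2) of intervals had a summit within 1000 bp of any RefSeq start. The share near either kind of start was not computed. The bases before the RefSeq starts that intervals of 4 of the genes cover or follow are shown, as most of the 7 lay near such a start. They are RefSeq sequence on GRCm38.p6, the assembly of the mm10 build, given 5′ to 3′ on the strand of the gene, and capitals mark CpG dinucleotides. The Rfwd3 interval covered 191 of the 250 bases before the Rfwd3 start (chr8:111300223-111300472, minus strand). The interval beside Brca1 covered 130 of the 250 before the RefSeq start of its neighbour Nbr1 (chr11:101552404-101552653, plus strand). The Fancc (chr13:63431746-63431995, minus strand) and Fancl (chr11:26386834-26387083, plus strand) intervals began downstream of the start and covered none of the bases shown.
Rfwd3: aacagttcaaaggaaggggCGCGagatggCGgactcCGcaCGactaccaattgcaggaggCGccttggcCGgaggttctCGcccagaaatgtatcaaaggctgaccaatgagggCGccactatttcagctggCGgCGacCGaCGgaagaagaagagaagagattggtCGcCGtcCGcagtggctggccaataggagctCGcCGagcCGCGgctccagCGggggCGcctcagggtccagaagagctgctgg
Nbr1: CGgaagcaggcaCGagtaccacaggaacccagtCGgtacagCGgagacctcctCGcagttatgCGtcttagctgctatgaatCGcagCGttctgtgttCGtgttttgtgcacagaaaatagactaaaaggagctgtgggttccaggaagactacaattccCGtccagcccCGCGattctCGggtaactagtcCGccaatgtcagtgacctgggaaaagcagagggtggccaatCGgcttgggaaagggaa
Fancc: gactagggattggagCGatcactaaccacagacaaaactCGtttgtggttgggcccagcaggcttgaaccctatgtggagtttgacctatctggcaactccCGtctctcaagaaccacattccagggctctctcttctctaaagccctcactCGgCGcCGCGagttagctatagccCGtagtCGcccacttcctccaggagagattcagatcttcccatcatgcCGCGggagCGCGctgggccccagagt
Fancl: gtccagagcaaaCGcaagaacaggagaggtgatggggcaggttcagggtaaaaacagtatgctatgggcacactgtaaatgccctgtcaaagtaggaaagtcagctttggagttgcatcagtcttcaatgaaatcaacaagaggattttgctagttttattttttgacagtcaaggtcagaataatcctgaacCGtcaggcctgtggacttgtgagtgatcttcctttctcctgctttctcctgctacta
The stretches hold 22 CpGs before Rfwd3, 15 before Nbr1, 13 before Fancc and 2 before Fancl.

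Fancc, a gene of the core complex, had an interval in both knockdown lists and in neither shCtrl library. The gene (ID 14088, minus strand) spans chr13:63301334-63497292, 195959 bp. In shUbe2t #1 the interval was chr13:63431089-63431466, with a fold enrichment of 6.02 over its local background and a −log10 q of 6.20, both the authors' values. In shUbe2t #2 it was chr13:63430821-63431270, with a fold of 4.81 and a −log10 q of 3.49. The 2 intervals overlapped by 182 bp and their summits, the positions of highest signal, lay 27 bp apart. Among all 234 regions held by both knockdown lists and not by shCtrl, the summits of the 2 lists lay a median of 57 bp apart (quartiles 22 and 140). No other gene end lay within 1000 bp. The interval had been placed inside the gene by its outer ends, but the RefSeq start of Fancc is at 63431745, and the summits lay 538 and 565 bp downstream of it. The outermost annotated start was 66085 bp away from the shUbe2t #1 summit. The nearest shCtrl interval was 671 kb from the gene and the nearest no-antibody interval 2164 kb.

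Fancl encodes the ligase subunit that pairs with UBE2T, and was called in shUbe2t #2 alone. The gene (ID 67030, plus strand) spans chr11:26387084-26471883, and the interval was chr11:26387307-26387506, with a fold of 5.00 and a −log10 q of 4.61. Its summit lay 378 bp downstream of the RefSeq start, which is also the outer end of the gene, and no end of another gene was within 1000 bp. The nearest interval of the other lists was far from the gene, at 2112 kb in shUbe2t #1, 2889 kb in shCtrl and 2935 kb without antibody.

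Slx4, the gene of the nuclease scaffold, was the member called in shCtrl. The gene (ID 52864, minus strand) spans chr16:3979105-4003829. The shCtrl interval was chr16:4003829-4004028, with a fold of 4.14 and a −log10 q of 2.47. The shUbe2t #2 interval was chr16:4003725-4003935, with a fold of 4.43 and a −log10 q of 3.19. They overlapped by 107 bp with summits 62 bp apart, against a median of 54 bp over the 128 regions of this pair of lists. The summits lay 39 bp upstream and 23 bp downstream of the outermost annotated start, at 4003829. The RefSeq start of Slx4 in the promoter table is at 4001678, so the same summits were 2190 and 2128 bp upstream of that start. In shUbe2t #1 the nearest interval to the gene was 69.8 kb away, and without antibody 627 kb.

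Brca1, a recombination gene, had the strongest of the 7 intervals by −log10 q, and the interval lay outside the gene. The gene (ID 12189, minus strand) spans chr11:101488761-101551955. The interval was called in shUbe2t #1 alone, at chr11:101552524-101552859, with a fold of 6.59 and a −log10 q of 10.3. It began 569 bp beyond the Brca1 start, the farthest of the 7 from its gene. Nbr1, which encodes an autophagy receptor (ID 17966, plus strand, chr11:101552107-101581951), runs the other way from the same stretch of DNA. The RefSeq starts of Brca1 and Nbr1 are 699 bp apart, and the summit was 742 bp upstream of the Brca1 start and 43 bp downstream of the Nbr1 start. From the outermost annotated Nbr1 start, at 101552107, the summit was 590 bp downstream and the interval began 417 bp away. The interval overlapped no base of the gene Brca1 and lay within the gene Nbr1. By position it lies at the RefSeq start of Nbr1, and at neither the outermost Nbr1 start nor the Brca1 start. It is named for Brca1 below only because it falls in the 1000 bp beside that gene. The nearest shUbe2t #2 interval was 76.0 kb from Brca1, and the nearest shCtrl interval 3264 kb.

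Rfwd3, the gene of a ubiquitin ligase that acts in recombination, had the weakest of the 7 intervals by both values. The gene (ID 234736, minus strand) spans chr8:111270944-111300222. The interval was called in shUbe2t #2 alone, at chr8:111300282-111300555, with a fold of 3.80 and a −log10 q of 2.1. It began 60 bp beyond the gene, with its summit 191 bp upstream of the RefSeq start, and no other gene end was within 1000 bp. The nearest interval was 351 kb from the gene in shCtrl and in shUbe2t #1, and 3160 kb without antibody.

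**Figure D1:**
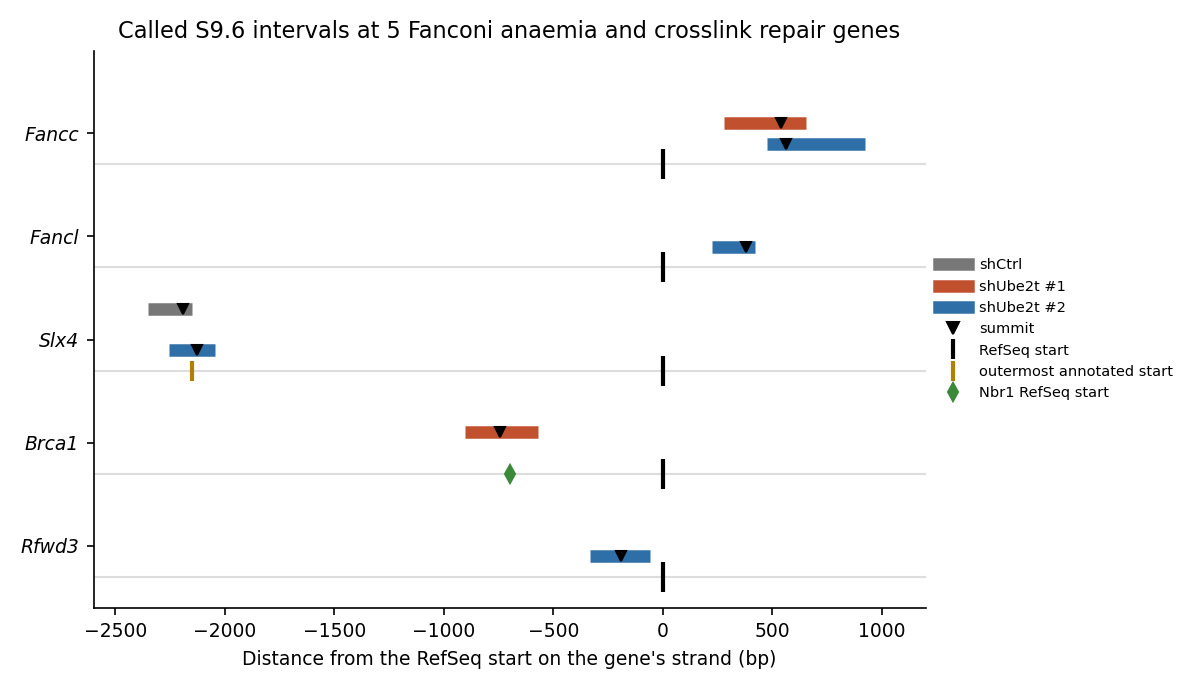
Called intervals (bars) and summits (triangles) at the 5 genes, as distance in bp from the RefSeq start (black tick) on the strand of each gene, for shCtrl, shUbe2t #1 and shUbe2t #2. The Slx4 intervals sit at the outermost annotated start, 2151 bp upstream of the RefSeq start. The interval beside Brca1 sits at the RefSeq start of Nbr1, 699 bp upstream of that of Brca1.

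Positions relative to starts differed among the members. Summits within 1000 bp of a RefSeq start lay at a median of 70 bp upstream in the whole shUbe2t #1 list (quartiles 193 bp upstream and 29.2 bp downstream, 624 intervals) and 73 bp upstream in the shUbe2t #2 list (quartiles 174 bp upstream and 23.8 bp downstream, 716 intervals). The Fancc and Fancl summits, at 378 to 565 bp downstream, lay beyond the upper quartile of their lists, and the Rfwd3 summit, 191 bp upstream, lay just beyond the lower quartile. The interval at Nbr1 lay past the upper quartile by a small distance. Intervals at RefSeq starts made up 25.3% of the shCtrl list, 41.1% of the shUbe2t #1 list, 43.7% of the shUbe2t #2 list and 4.84% of the no-antibody list. Regions held by both knockdown lists alone, the class of Fancc, were within 1000 bp of a RefSeq start in 67.4% of 233 cases, those of shUbe2t #2 alone in 57.2% of 680 and those of shUbe2t #1 alone in 54.1% of 586. The share was lower for regions of shCtrl and shUbe2t #2, the class of Slx4, at 50 of 125. Counted from the RefSeq start alone, shCtrl held 0 of the 5 genes, shUbe2t #1 held 2, shUbe2t #2 held 3 and the no-antibody list 0, beside 1.93%, 3.84%, 4.38% and 0.137% of protein-coding genes with a start in the table. A position near a RefSeq start was thus shared by most regions in the classes of Fancc, Fancl, Rfwd3 and Brca1, but not in that of Slx4, whose intervals lay away from its RefSeq start.

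In strength the 7 intervals ranged from low to high in their lists. The share of intervals in the same list with a lower fold was 80.6% for Brca1 and 75.5% for Fancc in shUbe2t #1. In shUbe2t #2 it was 52.9% for Fancl, 46.2% for Fancc, 32.4% for Slx4 and 12.1% for Rfwd3. In shCtrl it was 27.3% for Slx4. Thus 3 of the 7 had a fold above the median of their list, and each of the 4 shUbe2t #2 intervals had a −log10 q below 5. Against regions with the same pattern of lists, the interval beside Brca1 had a higher −log10 q than 99.2% of the 592 regions of shUbe2t #1 alone, whose median was 3.24. Those regions were weaker than the whole shUbe2t #1 list, whose median was 4.64. Of that whole list the interval exceeded 78.4%. The Fancc interval exceeded 77.4% of its 234 regions in shUbe2t #1 and 40.6% in shUbe2t #2. The Slx4 intervals exceeded 20.3% and 28.9% of their 128 regions in shCtrl and shUbe2t #2. Of the 687 regions of shUbe2t #2 alone, Fancl exceeded 68.7% and Rfwd3 16.2%. None of the 7 overlapped a no-antibody interval.

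**Figure D2:**
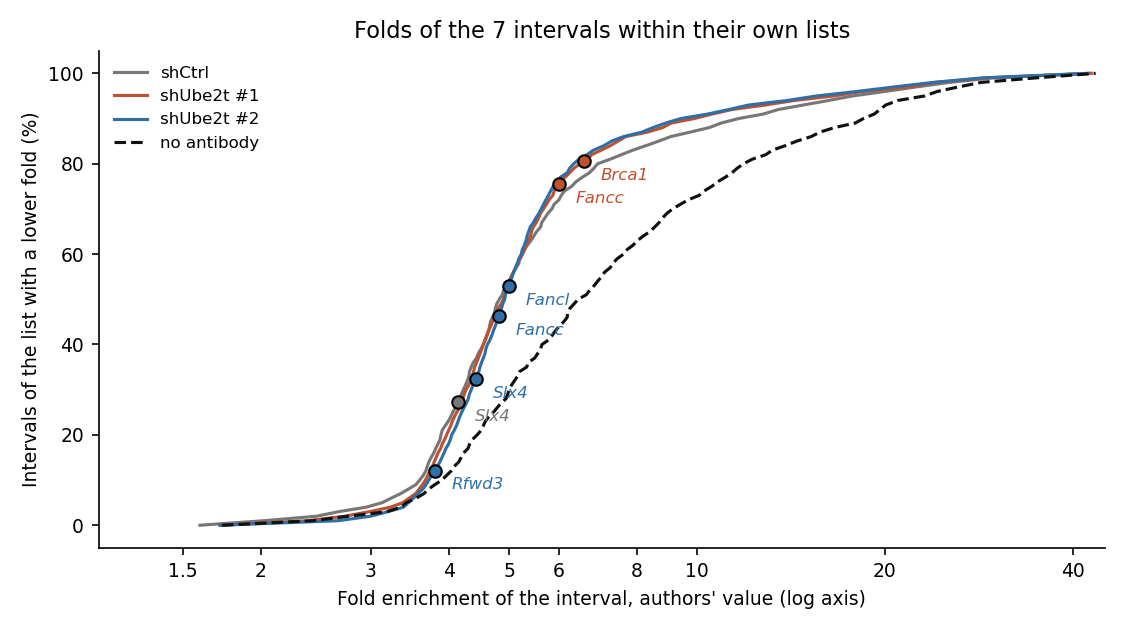
Share of each list's intervals with a lower fold (y axis, percent) against fold (x axis, log scale), with a curve per list and a point for each of the 7 intervals. The points run from 3.80 for Rfwd3 to 6.59 for Brca1, on the steep part of the curves, where most intervals of the S9.6 lists lie.

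The number of fragments behind each summit was small. The fold and p of a summit together fix the count of overlapping fragments and the background it was compared with. These counts were 23 beside Brca1 (95% Poisson interval 14.6 to 34.5), 15 and 12 at Fancc in shUbe2t #1 and #2 (8.40 to 24.7 and 6.20 to 21.0), and 15 at Fancl (8.40 to 24.7). At Slx4 they were 12 in shCtrl (6.20 to 21.0) and 13 in shUbe2t #2 (6.92 to 22.2), and at Rfwd3 12 (6.20 to 21.0). These bounds cover counting error only. The median summit held 16 fragments in the shCtrl list and 15 in each knockdown list, so only the summit beside Brca1 was above the median of its list. The background at the 7 summits was 1.37 to 2.18 times the genome-wide value of the same library, highest beside Brca1.

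An interval missing from a list can lie just under its threshold. Each count was therefore scaled to the estimated depth of a library without the call. The depths were not given, so the lowest background found in each library stood in for them. Relative to shCtrl this was 92.2% for shUbe2t #1, 93.6% for shUbe2t #2 and 58.7% for the no-antibody library. The scaled count was set against the smallest count that would have been called there on the same scaled background. Beside Brca1 the scaled count was 24.9 against a smallest called count of 12 in shCtrl, and 23.3 against 12 in shUbe2t #2, with the lower bounds of 15.8 and 14.8 also above 12. At Fancc the shUbe2t #1 count scaled to 16.3 in shCtrl (9.11 to 26.8) against 9, and the shUbe2t #2 count to 12.8 (6.63 to 22.4) against 9. The lower bound was just above the smallest called count for shUbe2t #1 and below it for shUbe2t #2. For Fancl the scaled counts were 16.0 against 11 in shCtrl and 14.8 against 10 in shUbe2t #1. For Rfwd3 they were 12.8 against 11 and 11.8 against 11, and for the missing shUbe2t #1 call at Slx4 11.1 and 12.8 against 10. At these 3 genes the counting interval contained the smallest called count, so a lower signal in the libraries without the call was not detectable at this depth. The bounds leave out the counting error of the library without the call, and each summit was picked for being called. A lower signal there was therefore not tested at Brca1 or Fancc either, where a bound lay above the smallest called count. Without antibody the scaled count was below the smallest called count at Slx4, at Rfwd3 and for the shUbe2t #2 interval of Fancc. At the estimated depth a signal of the same height would have been missed there. Beside Brca1 the count scaled to 14.6 (9.28 to 22.0) against 10 in the no-antibody library.

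**Figure D3:**
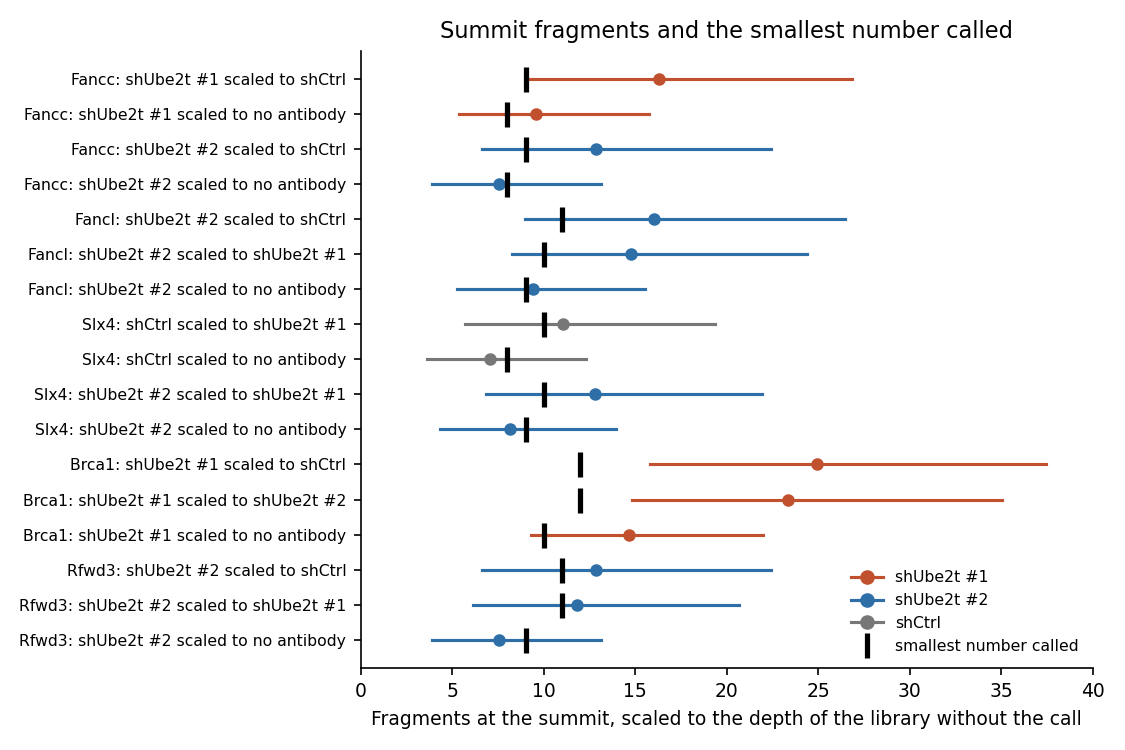
Fragments at each summit scaled to the depth, estimated from the lowest background, of a library that lacks the call (points, with 95% Poisson intervals as lines, coloured by the library of the call), and the smallest number that would have been called there (black ticks). For Brca1 against shCtrl and shUbe2t #2 the whole line lies right of the tick at 12, for Fancc in shUbe2t #1 against shCtrl its lower end of 9.11 is beside the tick at 9, and every other line crosses its tick.

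By list, 1 of the 5 genes was called in shCtrl, where 1.79% of all genes were, 2 in shUbe2t #1 (2.74% of all genes), 4 in shUbe2t #2 (3.0%) and none without antibody (0.493%). The genes were chosen for holding an interval, so nothing is read from these counts. Among protein-coding genes the shares were 3.07%, 4.95%, 5.42% and 0.731%. They were higher among protein-coding genes of 0.5 to 2 times the length of Fancc, the longest member, to 6.97% in shCtrl, 9.66% in shUbe2t #1 and 9.94% in shUbe2t #2.

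A list of 40 genes of the pathway, written with earlier results of these data known, holds the 5 members and 35 others. Of the 35, none was called in shCtrl, 1 in shUbe2t #1, 1 in shUbe2t #2 and none without antibody. Over all 40, with the members included, the counts were 1 in shCtrl (2.5%), 3 in shUbe2t #1 (7.5%), 5 in shUbe2t #2 (12.5%) and none without antibody, beside 3.07%, 4.95%, 5.42% and 0.731% of protein-coding genes. The members were chosen for holding an interval, which raises the share of the 40 and lowers that of the 35, so neither share is read against these values. By role, 2 of 13 core complex genes, 1 of 9 nuclease genes and 3 of 9 recombination genes held an interval in an S9.6 list, as did 8.91% of protein-coding genes. All but Bard1 among these were the members themselves, so nothing is read from the counts by role. None did among the 5 genes of the E2, the FANCI and FANCD2 complex and its deubiquitylation, the 3 translesion genes or the glycosylase Neil3. Ube2t, the target of the hairpins, held no interval, and the nearest was 226 kb from it in the S9.6 lists and 256 kb in the no-antibody list.

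The gene outside the 5 was Bard1 in both knockdown lists, named after its values were seen. It encodes the partner with which BRCA1 forms a ubiquitin ligase, and spans chr1:71027535-71103141 (ID 12021, minus strand). The fold was 4.80 in shUbe2t #1 (chr1:71103006-71103205, −log10 q 3.19, 11 fragments) and 5.56 in shUbe2t #2 (chr1:71102956-71103158, −log10 q 5.17, 14 fragments). The summits were 13 bp apart, 90 and 77 bp upstream of the RefSeq start. From the outermost annotated start, at 71103141, they were 79 and 92 bp downstream. Bard1 thus had the same pattern of lists as Fancc and, unlike Fancc, summits just before its RefSeq start. The shUbe2t #1 interval covered 200 of the 250 bases before that start (chr1:71102973-71103222, minus strand), shown with CpGs in capitals, 19 in all.
Bard1: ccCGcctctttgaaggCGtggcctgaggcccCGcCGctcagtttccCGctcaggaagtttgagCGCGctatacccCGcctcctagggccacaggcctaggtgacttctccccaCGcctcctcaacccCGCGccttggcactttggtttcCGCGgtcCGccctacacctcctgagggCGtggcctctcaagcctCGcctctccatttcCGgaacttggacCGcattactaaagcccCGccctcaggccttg
Scaled to shCtrl, where Bard1 was not called, the counts were 11.9 (5.95 to 21.3) and 15.0 (8.18 to 25.1) against a smallest called count of 9. Both counting intervals contained 9. The nearest shCtrl interval was 1571 kb from the gene.

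Just outside the 1000 bp window the nearest pathway gene was Fancg, of the core complex, with a shCtrl interval 1653 bp away (fold 4.83) that lay at an end of its neighbour Vcp. The next were Fan1, a nuclease gene, with a shCtrl interval 18.5 kb away (fold 6.39), and Rad51c, a recombination gene, with a shUbe2t #2 interval 22.2 kb away (fold 4.88). Rad51c also had an interval at 22.29 kb in shUbe2t #1 (fold 3.90) and at 22.55 kb in shCtrl (fold 3.79). Faap24, of the core complex, had an interval at 58.1 kb in both knockdown lists, with a fold of 5.07 in shUbe2t #1 and 3.64 in shUbe2t #2. Of the 40 genes, 28 had no interval of any list within 100 kb.

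**Figure D4:**
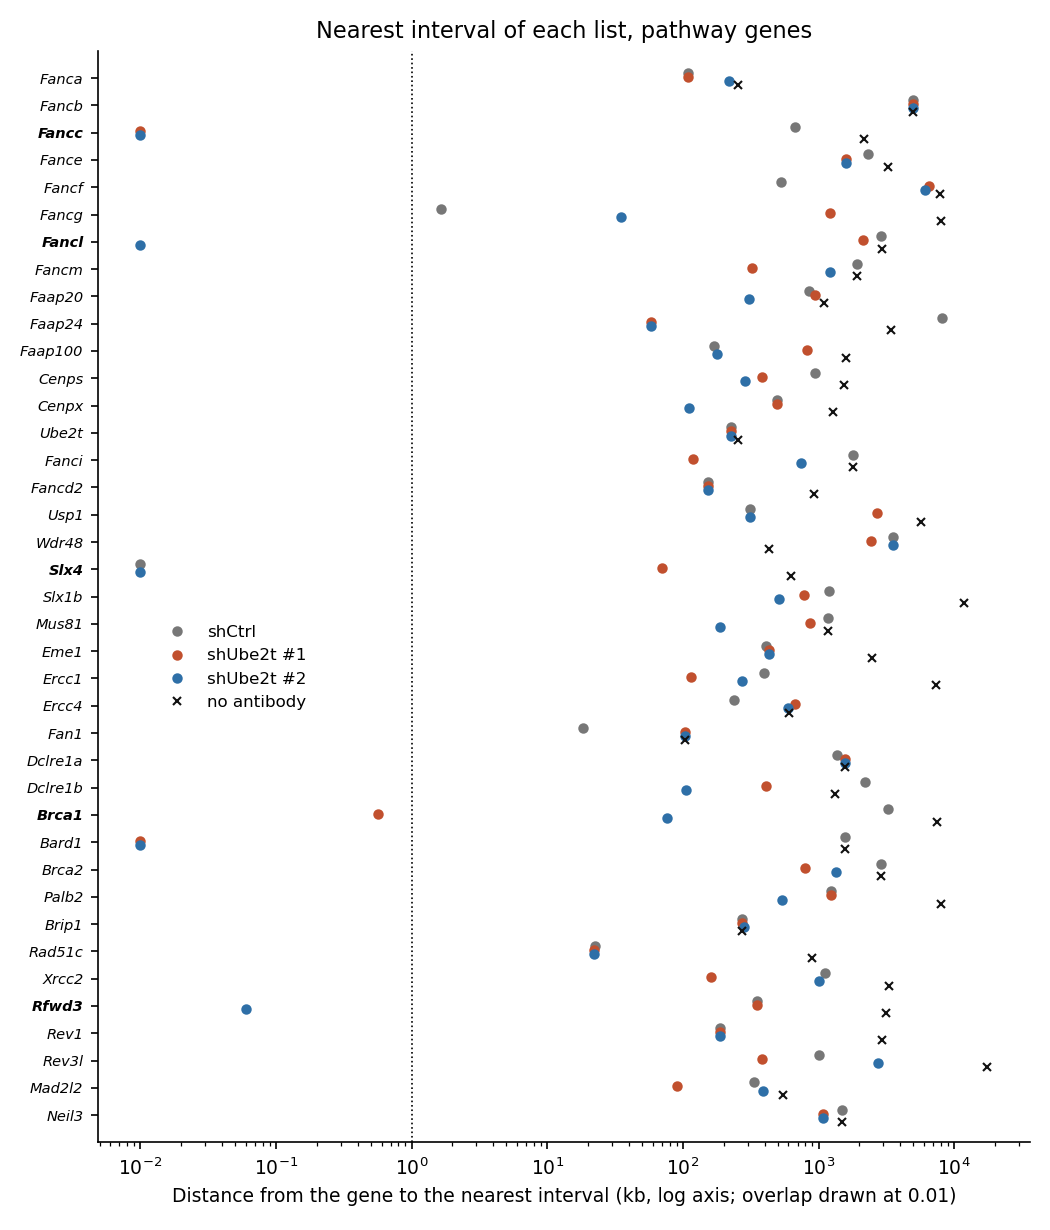
Distance in kb (log axis) from 39 of the 40 pathway genes to the nearest interval of each list, with the 5 members in bold, the dotted line at 1 kb and overlaps drawn at 0.01 kb. Points left of the line belong to the 5 members and Bard1, no cross of the no-antibody list lies there, and Fancg has a shCtrl point just right of it at 1.65 kb.

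The promoters of the members were not of one kind. In the 300-base window from 250 bases before to 50 after the RefSeq start, G and C made up 64.3% at Rfwd3, 60.3% at Fancc, 53.7% at Brca1, 47.0% at Fancl and 41.3% at Slx4. The median of 17492 protein-coding promoters was 56.3%. CpGs numbered 31, 23, 19, 3 and 4 in the same order, beside a median of 13 over all promoters and 23 over the 1228 whose start lay within 1000 bp of an S9.6 interval. Over the 24 promoters whose start lay within 1000 bp of a no-antibody interval the median was 18, also above that of all promoters. Rfwd3, Fancc and Brca1 thus had more CpGs than the median promoter and Fancl and Slx4 fewer. The Slx4 intervals lie at the other annotated start, whose bases are not in the window. The Nbr1 window held 19 CpGs, with 55.7% G and C.

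**Figure D5:**
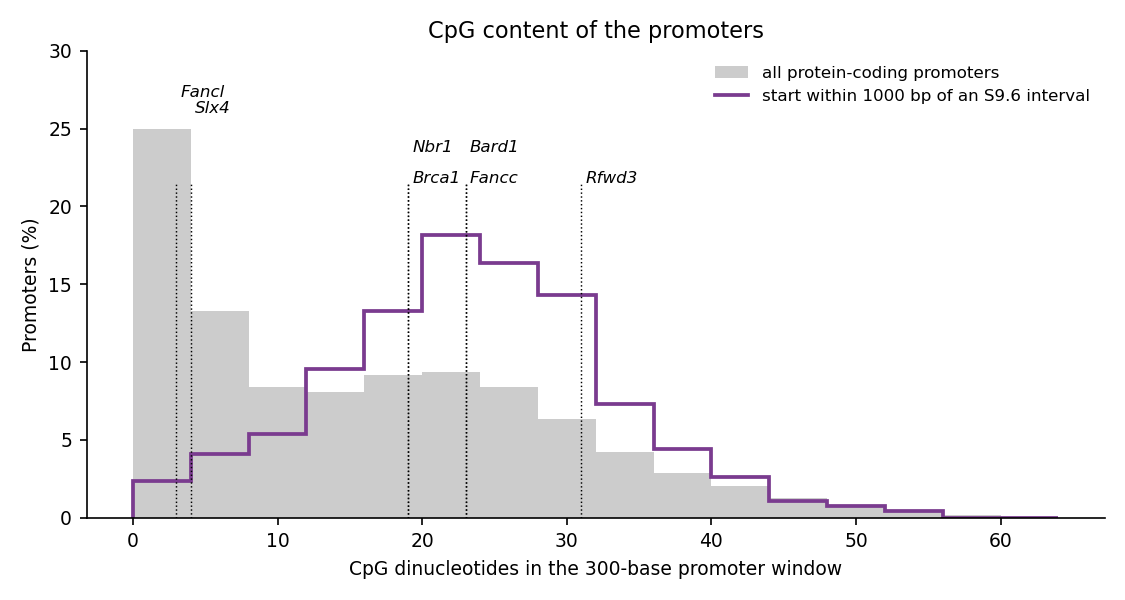
Share of protein-coding promoters (y axis, percent) by number of CpGs in the 300-base window (x axis), for all promoters (grey) and for those with a start within 1000 bp of an S9.6 interval (line), with dotted lines at the named genes. Fancl with 3 and Slx4 with 4 CpGs lie where promoters near S9.6 intervals are scarce, and Rfwd3 with 31 lies above their median of 23.

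The excess of G over C on the gene's strand, (G − C)/(G + C), which is often examined at R-loops, also differed in sign. It was 0.19 at Rfwd3, 0.078 at Fancl, 0.065 at Slx4 and 0.042 at Nbr1, and −0.12 at Fancc, −0.16 at Brca1 and −0.22 at Bard1, beside a median of 0.0072 over all promoters. The windows of Fancc, Fancl, Slx4 and Brca1 do not reach the intervals of these genes, and those of Rfwd3, Bard1 and Nbr1, where the interval beside Brca1 lies, overlap theirs. A run of GGGG on the gene's strand was present at Fancl, Brca1 and Rfwd3 and in 71.1% of all promoters. On the other strand it was present at Fancc, Brca1, Nbr1 and Bard1 and in 69.1%. The motif CCAAT, chosen after the sequences were seen and searched on both strands, matched 4 times at Rfwd3, 2 times at Nbr1, once each at Fancc, Slx4 and Brca1, and not at Fancl or Bard1. It occurs in 39.0% of promoters. GGGCGG, searched likewise, matched 2 times at Bard1, once each at Rfwd3 and Nbr1, and in 46.3% of promoters.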

How the data were processed

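CUT&Tag was done in 4 P19 libraries, 1 per condition, amplified for 11 PCR cycles per the labels' protocols. Per the submitters' processing notes, the tools were Trimmomatic, Bowtie (version given as 0.7.12) and MACS2 2.1.2, on mm10. The handling of duplicates, the q limit and any control used in calling are not given here. Duplicates, if kept, would raise single summits.

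The authors called peaks in each library separately and deposited 1 list per library. The fold enrichment was computed by the authors as the ratio of each summit to its local background. The p and q of each summit were computed by the authors and deposited as −log10 values. The deposited score was made by the authors as 10 times the −log10 q and was not used. Folds describe and rank intervals within a list. Distinct intervals numbered 1263 (shCtrl), 1519 (shUbe2t #1), 1640 (shUbe2t #2) and 516 (no antibody), each with its best summit by p. Depth per library is unknown.

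Fragment counts were solved from fold, taken as the ratio after adding 1, and from p as a Poisson tail. Among intervals with a −log10 p below 250, 99.8% to 99.9% per list gave a whole count whose p matched within 0.001. The lowest background per library gave relative depth. The solver and the overlap code were tested on simulated data.

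Overlap counted from 1 bp. Positions are counted from 1. Genes and starts are from RefSeq (GRCm38.p6). All 5 genes and 35 of the 40 pathway genes had a start in the promoter table. The members and gene lists were chosen with earlier results of these data known. Named are the 5 genes, genes with an end near their intervals, Ube2t and the 5 pathway genes closest outside the window (1 of them is not reported here), and Bard1 beside its count. Alternatives were other windows, q limits, overlaps, equal list lengths and distance to the start. Python 3.11.15, pandas 2.3.3 and scipy 1.17.1 were used.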

Additional observations from a re-analysis of the deposited data

How the results depend on the processing

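No paired analysis was possible because each condition had 1 library. With a −log10 q of at least 5, the intervals of Fancc in shUbe2t #1 and of Brca1 remained, and the count of the 5 genes became 0 in shCtrl and 0 in shUbe2t #2. The pathway list then had 0 in shCtrl and 1 in shUbe2t #2 (Bard1). With the gene body alone, Brca1 and Rfwd3 were lost, and shUbe2t #1 held 1 and shUbe2t #2 3 of the 5. Counting from the RefSeq start, added after the data were seen, Slx4 was lost and shCtrl held 0 of the 5 and 0 of the 40. With a 5000 bp window the pathway list had 2 genes in shCtrl, Slx4 and Fancg. With 1263 intervals per S9.6 list, Rfwd3 was lost and shUbe2t #2 held 3 of the 5. The share of all genes called was 3.07%, 4.95%, 5.42% and 0.731% for protein-coding genes (shCtrl, shUbe2t #1, shUbe2t #2, no antibody), 1.39%, 2.03%, 2.28% and 0.42% for gene bodies alone, and, in the 3 S9.6 lists with a −log10 q of at least 2, 1.55%, 2.4% and 2.75%. Lists per region and folds were the same under the alternatives run. Summits of 12 to 23 fragments limit what a missing call can show.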
